A study of Homo sapiens with 12 samples.

Results

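Chemokine genes of the senescence-associated secretome were followed in MCF10A cells, a human breast epithelial line that does not form tumours. They were chosen by symbol, 10 genes with 11 of the 62082 gene identifiers in the tables: CXCL1, CXCL2, CXCL3, CXCL5, CXCL6, IL8 (the older symbol of CXCL8), CXCL16, CCL2, CCL20 and CCL5, with CCL5 listed under a second identifier that had no reads. Expression was measured by RNA sequencing in 4 groups of 3 libraries. The p53-deleted H-Ras group had a targeted deletion at exon 2 of p53 and stably expressed H-RasV12, an activated form of the H-Ras protein, from a retrovirus. The p53-deleted vector group had the same deletion and the empty pBabepuro vector. The wild-type H-Ras group had intact p53 and H-RasV12, and the p53 wild-type vector group had intact p53 and the empty vector. All cells grew in medium with horse serum and had no further treatment. The design pairs every H-Ras line with 1 vector line made at that time as its control. A p53 effect therefore cannot be told apart from the pair of lines it came with, nor an H-Ras effect from anything else that separates a pair. Nothing in the labels says whether the 3 replicates were separate cultures, so each p-value measures only the spread between these libraries.

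Chemokines are small secreted proteins that guide leukocytes along concentration gradients through G protein-coupled receptors. CXCL1, CXCL2, CXCL3, CXCL5, CXCL6 and IL8 carry the ELR motif, bind CXCR2 and attract neutrophils. Their genes lie side by side on chromosome 4. CCL20 attracts dendritic cells and T cells through CCR6, CCL2 attracts monocytes through CCR2, and CCL5 attracts T cells and monocytes. CXCL16 is made as a membrane-anchored protein, is shed by the protease ADAM10 and binds CXCR6. Transcription of the ELR genes and of CCL20 is known to be driven by NF-kappaB, with IL1 as a strong inducer in epithelial cells.

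The promoters show what the inducible members share in sequence. RefSeq promoters (GRCh38.p14) were held for 7 of the 10 members, and those of 5 are given here over bases -170 to -1 before the start site, 5' to 3' on the gene's strand, with matched motifs in capitals. The kappaB-type motif searched was GGNNTTTCC, with GGAATTTCC as a stricter form. The AP-1 motif was TGANTCA and the TATA motif TATAAA, and every motif was searched on both strands. CXCL1 (chr4:73869223-73869392, plus strand) and CXCL3 (chr4:74038690-74038859, minus strand) are shown as close relatives, CXCL6 (chr4:73836508-73836677, plus strand) as a member without reads, and IL8 (chr4:73740399-73740568, plus strand) and CCL20 (chr2:227813672-227813841, plus strand) as a pair that varied together.
CXCL1: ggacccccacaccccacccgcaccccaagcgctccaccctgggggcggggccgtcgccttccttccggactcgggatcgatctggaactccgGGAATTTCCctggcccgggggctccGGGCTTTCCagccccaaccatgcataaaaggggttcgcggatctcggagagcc
CXCL3: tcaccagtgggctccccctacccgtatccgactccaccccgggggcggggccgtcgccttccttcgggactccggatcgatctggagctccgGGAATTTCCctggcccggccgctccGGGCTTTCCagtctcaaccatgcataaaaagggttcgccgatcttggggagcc
CXCL6: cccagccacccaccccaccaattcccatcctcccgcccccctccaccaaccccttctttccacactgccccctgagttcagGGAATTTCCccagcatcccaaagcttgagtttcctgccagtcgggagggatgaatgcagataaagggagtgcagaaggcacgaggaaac
IL8: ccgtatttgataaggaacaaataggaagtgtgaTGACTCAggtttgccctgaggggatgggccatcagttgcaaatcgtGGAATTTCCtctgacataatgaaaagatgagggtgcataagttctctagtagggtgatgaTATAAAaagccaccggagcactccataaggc
CCL20: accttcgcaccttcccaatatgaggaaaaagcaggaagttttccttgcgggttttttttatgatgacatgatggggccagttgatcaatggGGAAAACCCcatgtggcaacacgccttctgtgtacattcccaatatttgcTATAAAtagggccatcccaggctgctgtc

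Motifs were searched from 250 bases before to 50 bases after the start, in members and in all promoters alike. Over that span GGNNTTTCC was found in 7 of the 7 promoters, against 6.26% of 27305 promoters. GGAATTTCC was found in 6 of the 7, against 0.47% of promoters. It spanned -78 to -70 in CXCL1 and CXCL3, -77 to -69 in CXCL2, -90 to -82 in CXCL5, -89 to -81 in CXCL6 and -91 to -83 in IL8. The strict motif thus lay at a similar distance from the start in all 6. CXCL1, CXCL2 and CXCL3 had a second match, GGGCTTTCC, at -53 to -45, and CCL20 had its match on the other strand at -79 to -71. TGANTCA was found in IL8 alone, at -137 to -131, against 7.76% of promoters. TATAAA was found in IL8 and CCL20, against 11.95% of promoters. Over the whole promoters, CXCL1 and CXCL3 were identical at 82.5% of aligned positions, CXCL5 and CXCL6 at 83.1%, and CXCL1 and IL8 at 43.1%. CXCL5 and CXCL6 thus had similar promoters with the same strict motif. CXCL6 had no read in any library, and CXCL5 had 50 reads, all in p53 wild-type H-Ras libraries. These matches are sequence descriptions and do not show binding.

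HRAS checked the labels: it had 16475 to 18592 normalized counts in p53-deleted H-Ras libraries and 793 to 878 in p53-deleted vector libraries, and 14809.5 to 18454 in p53 wild-type H-Ras libraries and 717 to 946 in p53 wild-type vector libraries. Estimated totals were 7849200 to 10075600 reads per library. Libraries carry the letters A, B and C within each group. Library C among p53 wild-type H-Ras libraries and library A of the p53 wild-type vector group stood apart from their fellows. That library C gave 24.8 and 26.8 for chi-square per degree of freedom with its fellows, and that library A 22.3 and 27.3, against 2.19 to 11.3 in the other 8 pairs of libraries. The basal epithelial markers KRT14, KRT17, KRT6A, TP63, CDH1, EPCAM and ITGB4 summed to 10085 to 10624 normalized counts in p53-deleted H-Ras libraries and 36878 to 43414 in p53-deleted vector libraries. They summed to 5522 to 6105 in p53 wild-type H-Ras libraries and 27537 to 28262 in p53 wild-type vector libraries. KRT5 could not be solved per library in p53-deleted vector cells and is left out of these sums. Its group mean was 3239 in p53-deleted H-Ras and 45144 in p53-deleted vector cells, and 5245 in p53 wild-type H-Ras and 34616 in p53 wild-type vector cells. With H-Ras, 6 of the 7 markers tested were called lower in p53-deleted cells, against 28.4% of all genes tested. In p53 wild-type cells 8 of 8 were called lower, against 12.7% of all genes. Between the H-Ras lines only 6 of the 8 markers passed the filter. Some markers thus passed in the H-Ras comparisons only with the vector libraries, where they were high. KRT14 was among them in p53-deleted cells. Both counts are therefore no support. CDH1 (E-cadherin) fell by 6.27 in p53-deleted and by 8.07 in p53 wild-type cells on the log2 scale. ITGB4, with -0.33 ± 0.14 in p53-deleted cells (SE, limma adjusted p = 0.0693), was the marker not called there.

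Within each p53 background, H-Ras cells had more CXCL1, CXCL2, CXCL3, IL8 and CCL20 mRNA and less CXCL16 mRNA than vector cells. In p53-deleted cells the increases of group means ran from 2.52-fold for CXCL2 to 17.8-fold for IL8. In p53 wild-type cells they ran from 4.91-fold for CCL20 to 40.9-fold for CXCL3, and CXCL5 was detected in this H-Ras line only. In these bulk libraries, fewer cells of a kind and less RNA per cell cannot be told apart. Tests were made with limma on log2(normalized count + 1), with adjusted p-values (Benjamini-Hochberg over all genes tested, two-sided) under 0.05 counted as called. Of 6 members that passed the filter in p53-deleted cells, 5 were called higher and 1 lower, against 27.8% and 28.4% of all 12768 genes tested. Of 7 that passed in p53 wild-type cells, 6 were called higher and 1 lower, against 13.0% and 12.7% of all 12455 genes. CXCL2 and CXCL3 in the deleted background and CXCL5 in the wild-type one reached the filter's 3 libraries only with the H-Ras libraries, where they were high, so these counts and the medians are no support on their own. Over all genes, 1614 higher and 1583 lower calls lay behind the p53 wild-type shares. Leaving out any 1 of vector libraries B and C and H-Ras libraries A and B gave 739 to 1071 and 768 to 1006. Leaving out the 2 libraries that stood apart, a fit chosen after seeing the data, gave 3341 and 3459. The median log2 fold change over the members tested was 2.09 in p53-deleted and 2.95 in p53 wild-type cells, and over all genes tested it was 0.01 and -0.02.

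**Figure D1:**
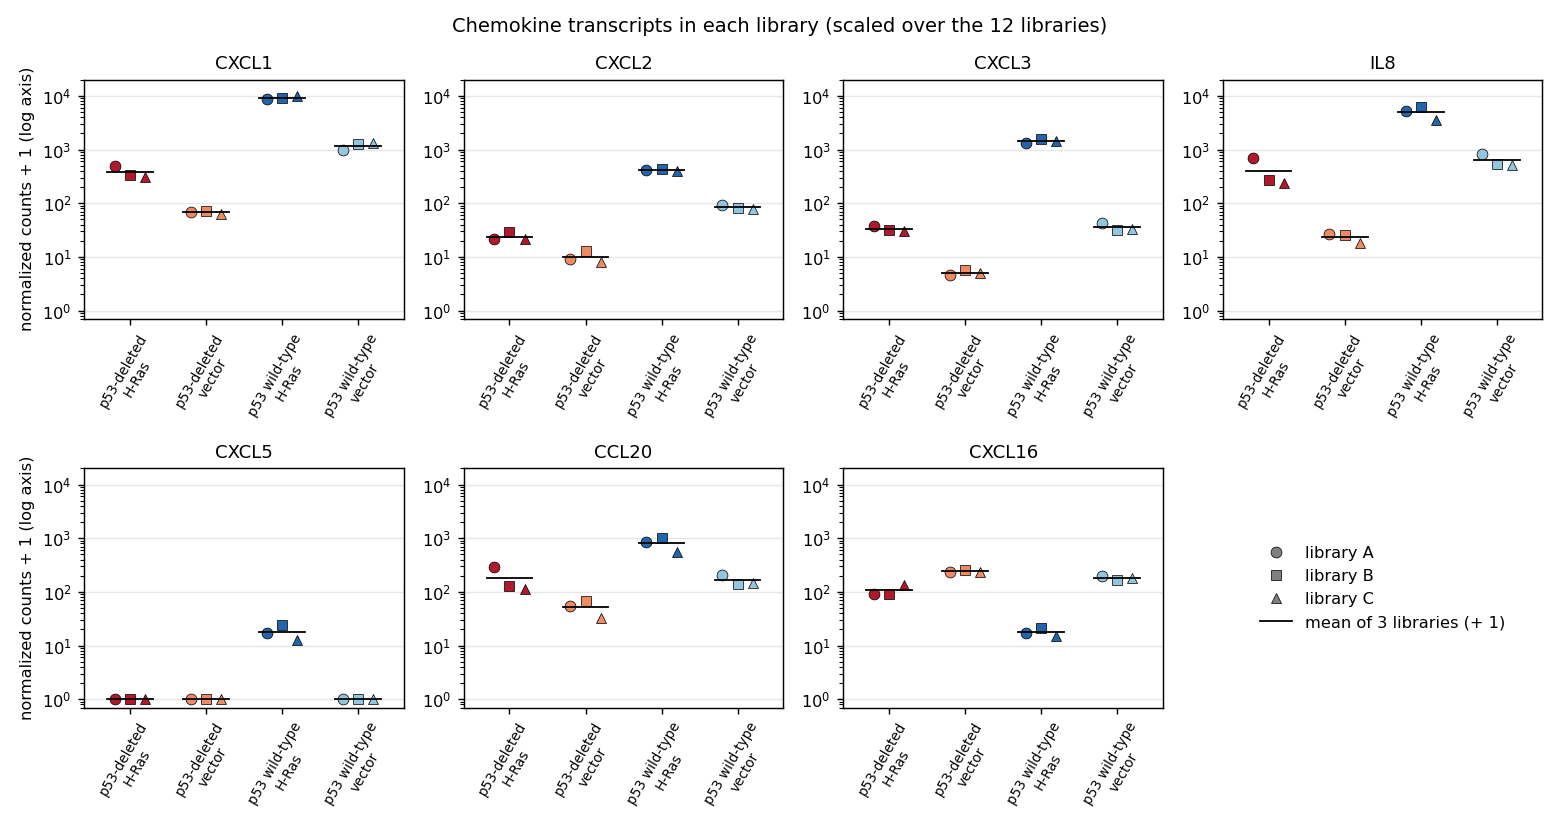
Normalized counts + 1 of 7 chemokine genes on a log axis, scaled over the 12 libraries, for each library (points) of the 4 groups, with the mean of 3 libraries (+ 1) as a line. For CXCL1, CXCL2, CXCL3, IL8 and CCL20 the p53-deleted H-Ras points lie above the p53-deleted vector points and the p53 wild-type H-Ras points above the p53 wild-type vector points, CXCL16 shows the opposite order, and CXCL5 is above 0 only in p53 wild-type H-Ras libraries.

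CXCL1, a neutrophil attractant first described as a melanoma growth-stimulating activity, had 518, 356 and 329.9 normalized counts in p53-deleted H-Ras libraries A, B and C, against 72.5, 74.2 and 65.0 in p53-deleted vector libraries. In p53 wild-type cells it had 8242, 8548 and 9270.1 in H-Ras libraries and 951, 1194 and 1249 in vector libraries. The libraries of each H-Ras line lay above all those of its vector line. The log2 fold change was 2.46 ± 0.17 in p53-deleted cells (SE, limma adjusted p = 3.31e-07) and 2.95 ± 0.13 in p53 wild-type cells (adjusted p = 1.13e-05). CXCL1 was the most abundant member per kilobase of transcript in all groups except p53-deleted vector cells.

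CXCL2 had 21.4, 29.4 and 21.6 normalized counts in p53-deleted H-Ras libraries and 8.70, 12.7 and 7.34 in p53-deleted vector libraries. With wild-type p53 it had 398, 415 and 378 in H-Ras libraries and 85.9, 75.9 and 74.9 in vector libraries. The groups did not overlap in either background. Its log2 fold change was 1.27 ± 0.29 in p53-deleted cells (SE, limma adjusted p = 0.00328) and 2.32 ± 0.13 in p53 wild-type cells (adjusted p = 2.96e-05).

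CXCL3, the third gene of this closely related trio, had 39.1, 32.5 and 30.9 normalized counts in p53-deleted H-Ras libraries and 3.87, 4.88 and 4.19 in p53-deleted vector libraries. With wild-type p53 it had 1245, 1455 and 1392 in H-Ras libraries and 40.3, 29.5 and 30.2 in vector libraries. The p53-deleted H-Ras libraries thus had about the level of the p53 wild-type vector libraries. The log2 fold change was 2.72 ± 0.27 in p53-deleted cells (SE, limma adjusted p = 7.62e-06) and 5.32 ± 0.16 in p53 wild-type cells (adjusted p = 3.84e-06). Transcripts of CXCL1, CXCL2 and CXCL3 shared 5.73%, 9.24% and 5.26% of their 50-base windows with each other, and how the counting treated reads that match several of these genes is not given in the sources used here. Counts among the trio are therefore uncertain to that extent. No 50-base window of the other 7 members was shared with another member.

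CXCL3 also changed relative to its relatives, but in p53-deleted cells the ratios below rest on few reads. The ratio of CXCL3 to CXCL2 reads within a library was 1.10 to 1.83 in p53-deleted H-Ras libraries and 0.385 to 0.571 in p53-deleted vector libraries. It was 3.13 to 3.68 in p53 wild-type H-Ras libraries and 0.389 to 0.469 in p53 wild-type vector libraries. In both vector lines CXCL3 had fewer reads than CXCL2, and in both H-Ras lines it had more. The p53-deleted vector group had only 13 CXCL3 and 29 CXCL2 reads, and the p53-deleted H-Ras group 104 and 73. In p53-deleted H-Ras library B the counts were close, at 32 CXCL3 and 29 CXCL2 reads. Counting error alone left the CXCL3 increase in p53-deleted cells anywhere from 4.46-fold to 15.4-fold (95% exact interval). The ratio of CXCL1 to CXCL3 reads was 10.7 to 13.2 in p53-deleted H-Ras libraries and 15.2 to 18.8 in p53-deleted vector libraries, and 5.87 to 6.66 in p53 wild-type H-Ras libraries and 23.6 to 41.4 in p53 wild-type vector libraries.

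IL8, the main neutrophil attractant of human epithelium, had 733, 281.0 and 255 normalized counts in p53-deleted H-Ras libraries A, B and C, against 27.0, 26.4 and 17.8 in p53-deleted vector libraries. In p53 wild-type cells it had 4977, 5749 and 3404 in H-Ras libraries and 777, 509.9 and 499.8 in vector libraries. Library A of the p53-deleted H-Ras line was far above its fellows, and all H-Ras libraries lay above all vector libraries of their background. The log2 fold change was 3.95 ± 0.34 in p53-deleted cells (SE, limma adjusted p = 2.36e-06) and 2.98 ± 0.24 in p53 wild-type cells (adjusted p = 0.000168). Without library A of the p53-deleted H-Ras line the ratio of means was 11.3 instead of 17.8, and the log2 fold change was 3.46 (limma adjusted p = 2.26e-07).

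CCL20, a ligand of CCR6 made by epithelia, had 310.0, 136 and 119.6 normalized counts in p53-deleted H-Ras libraries and 56.0, 72.3 and 33.5 in p53-deleted vector libraries. With wild-type p53 it had 798, 962 and 524 in H-Ras libraries and 194, 131 and 141 in vector libraries. The log2 fold change was 1.72 ± 0.35 in p53-deleted cells (SE, limma adjusted p = 0.00151) and 2.27 ± 0.25 in p53 wild-type cells (adjusted p = 0.000659). In the authors' deposited table CCL20 missed the 0.05 threshold in p53-deleted cells, with an adjusted p of 0.0697. The other 5 members called in that background were under it in the authors' deposited table, as were the 7 called in p53 wild-type cells.

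IL8 and CCL20 varied in the same libraries, except in p53-deleted vector cells. Both were highest in library A of the p53-deleted H-Ras group and of the p53 wild-type vector group, and lowest in library C among p53 wild-type H-Ras libraries. The ratio of IL8 to CCL20 reads stayed within 2.07 to 2.36 in p53-deleted H-Ras libraries and 0.365 to 0.531 in p53-deleted vector libraries. It stayed within 5.97 to 6.50 in p53 wild-type H-Ras libraries and 3.55 to 4.01 in p53 wild-type vector libraries. Inside each H-Ras line the ratio thus moved little although IL8 itself moved by more than CXCL1 did, and the ratio was higher in each H-Ras line than in its vector line. The libraries concerned in the p53 wild-type background are those that stood apart over all genes. Without them the p53 wild-type log2 fold change was 3.40 for IL8, 2.68 for CCL20 and 2.78 for CXCL1. It was 2.41 for CXCL2, 5.45 for CXCL3 and -3.19 for CXCL16. This fit was chosen after seeing the data and drops the most deviant libraries. Its p-values would understate the spread and are not given.

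**Figure D2:**
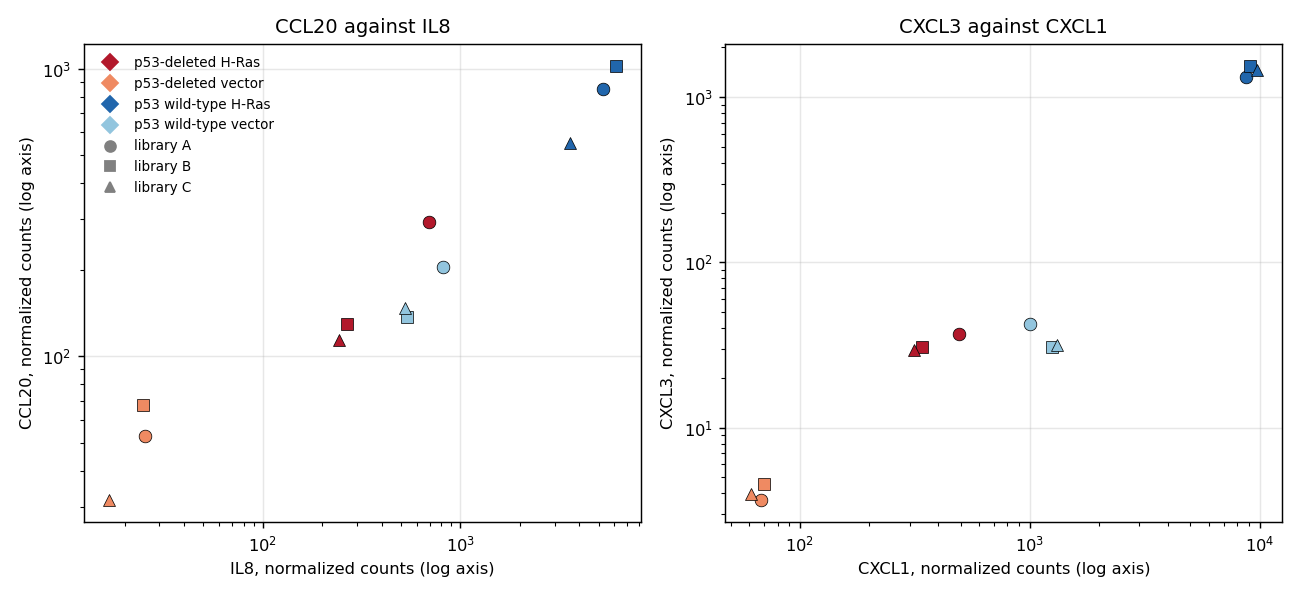
Normalized counts of CCL20 against IL8 (left) and of CXCL3 against CXCL1 (right) on log axes, scaled over the 12 libraries, with 1 point per library, coloured by group and shaped by library. Within a group CCL20 is mostly higher where IL8 is higher, while CXCL3 is about level between p53-deleted H-Ras and p53 wild-type vector libraries that differ in CXCL1.

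CXCL5, the ELR chemokine also called ENA-78, had 15.3, 22.0 and 11.1 normalized counts in p53 wild-type H-Ras libraries, from 50 reads, and 0 in the other 9 libraries. With vector taken at a floor of 3 reads over its group, it was at least 15.9-fold higher in p53 wild-type H-Ras cells than in their vector cells. The fitted log2 fold change of 4.05 ± 0.41 (SE, limma adjusted p = 0.00045) depends on the pseudocount and is no bound. CXCL6, its close relative in promoter sequence, had 0 reads in all 12 libraries, which allows up to 3 reads over the libraries. CCL2 had 0 reads in both p53-deleted groups, and in p53 wild-type cells 1 read with H-Ras and 5 reads with vector. Its H-Ras to vector ratio of 0.2005 had a 95% exact counting interval of 0.00405 to 1.71. CCL5 had 3 reads in the p53-deleted H-Ras group and 6 in the p53-deleted vector group, and 2 with H-Ras and 3 with vector in p53 wild-type cells. No difference in CCL2 or CCL5 was detectable at this depth. Intervals and floors cover counting error only.

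CXCL16 moved against the other members. It had 95.9, 95.4 and 141 normalized counts in p53-deleted H-Ras libraries and 250.2, 277 and 244 in p53-deleted vector libraries. With wild-type p53 it had 15.3, 19.1 and 13.1 in H-Ras libraries and 184, 157 and 172 in vector libraries. The groups did not overlap in either background. The log2 fold change was -1.23 ± 0.16 in p53-deleted cells (SE, limma adjusted p = 6.03e-05) and -3.36 ± 0.20 in p53 wild-type cells (adjusted p = 4.34e-05). In group means this was 2.32-fold lower in p53-deleted and 10.8-fold lower in p53 wild-type H-Ras cells. ADAM10, the protease that sheds CXCL16, had a log2 fold change of -0.14 ± 0.08 in p53-deleted cells (limma adjusted p = 0.172) and was 0.41 ± 0.10 higher in p53 wild-type cells (adjusted p = 0.0191). ADAM17, another shedding protease, was 0.61 ± 0.08 higher in p53-deleted cells (limma adjusted p = 8.52e-05) and had 0.33 ± 0.18 in p53 wild-type cells (adjusted p = 0.219). Both ADAM genes were named after their values were seen.

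The size of the H-Ras response was then compared between the p53 backgrounds by the interaction contrast over the 12 libraries, as p53-deleted minus p53 wild-type. Of 7 members tested, 1 differed upwards and 3 downwards, against 9.28% and 7.92% of 13248 genes, with a median difference of -0.55 over the members and -0.01 over all genes. CXCL5 was tested there only through the p53 wild-type H-Ras libraries, where it was high, so the count and the median are no support. Without p53 wild-type H-Ras library A or B, 1 member differed downwards, and without p53-deleted H-Ras library C the calls upwards over all genes were 750 instead of 1229. CXCL3 had the smaller rise in p53-deleted cells, by -2.60 ± 0.25 on the log2 scale (SE, limma adjusted p = 4.43e-05). CXCL5, with reads in a single group, differed by -4.05 ± 0.56 (adjusted p = 0.000453). The fall of CXCL16 was smaller in p53-deleted cells, with a difference of 2.13 ± 0.26 (adjusted p = 0.000204). CXCL2 differed by -1.05 ± 0.29 (adjusted p = 0.0271), but this call was lost in 7 of the 12 fits that left out a library (adjusted p up to 0.0671) and with no filter on low values (0.0508).

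A difference in response was not called for the other 3. For CXCL1 it was -0.48 ± 0.22 with a 95% interval of -0.96 to -0.01 (SE, limma adjusted p = 0.15), and without library A of the p53-deleted H-Ras line it was -0.68 and called (0.0242). For IL8 it was 0.97 ± 0.49 with an interval of -0.10 to 2.04 (adjusted p = 0.197), and for CCL20 -0.55 ± 0.51 with an interval of -1.66 to 0.56 (adjusted p = 0.499). Without the 2 libraries that stood apart the differences were 0.54 for IL8, -0.97 for CCL20, -2.73 for CXCL3, -1.15 for CXCL2 and 1.96 for CXCL16. These intervals include sizeable differences in both directions for CCL20, so equal responses are not shown.

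**Figure D3:**
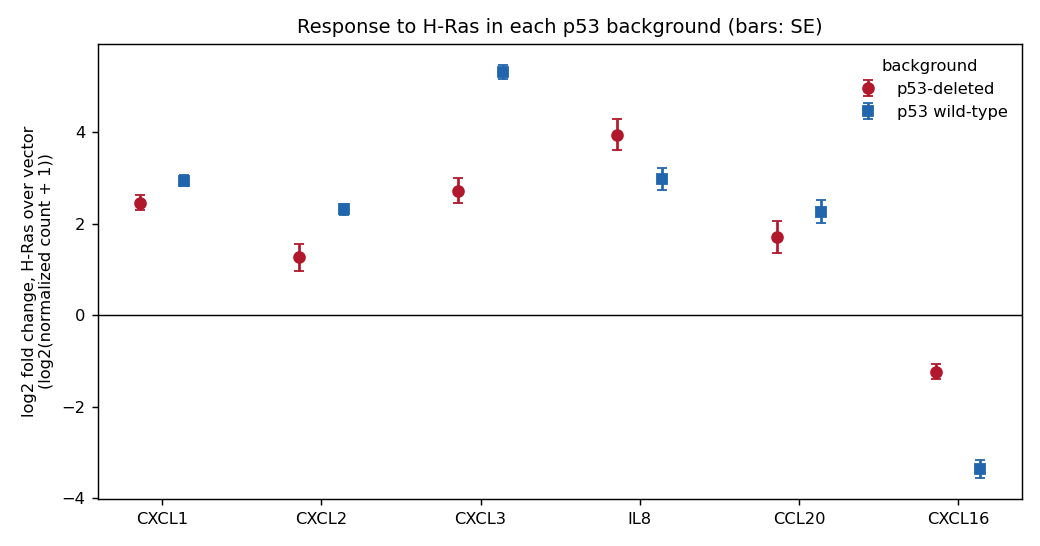
Log2 fold change of H-Ras over vector cells (log2(normalized count + 1) scale) for 6 chemokine genes in the p53-deleted and p53 wild-type backgrounds, with bars for SE. CXCL3 stands at 2.72 in p53-deleted and 5.32 in p53 wild-type cells, CXCL16 at -1.23 and -3.36, and IL8 at 3.95 and 2.98.

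Set against p53 wild-type lines of the same kind, p53-deleted lines had far less ELR chemokine mRNA, with or without H-Ras. Levels here are normalized over the 12 libraries. In the H-Ras lines CXCL1 averaged 381 ± 95.8 normalized counts in p53-deleted and 9198 ± 505 in p53 wild-type cells (SD, n = 3 each), a 24.1-fold lower level. In the vector lines it averaged 66.3 ± 4.57 in p53-deleted and 1187 ± 164 in p53 wild-type cells, 17.9-fold lower. The p53-deleted H-Ras libraries therefore had less CXCL1 than the p53 wild-type vector libraries.

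Among the H-Ras lines, 6 of 7 members tested were called lower in p53-deleted cells and 1 higher, against 18.0% and 18.6% of 12666 genes. CXCL5 passed the filter only through the p53 wild-type libraries, where it was high, so this count is no support. Over all genes, 1356 to 1481 were called higher without any 1 of the p53-deleted libraries, against 2358 with all, and 1480 and 1512 lower without libraries B and C of that line, against 2279. CXCL3 was 44.5-fold lower, with means of 32.4 in p53-deleted and 1445 in p53 wild-type cells (log2 fold change -5.44 ± 0.13, SE, limma adjusted p = 1.64e-06). CXCL2 was 18.3-fold lower, with means of 23.0 in p53-deleted and 421 in p53 wild-type cells (log2 fold change -4.15 ± 0.17, adjusted p = 9.46e-06). IL8 was 12.4-fold lower, with means of 401 in p53-deleted and 4994 in p53 wild-type cells (log2 fold change -3.77 ± 0.39, adjusted p = 0.000332), and 19.6-fold lower without library A of the p53-deleted line. CCL20 was 4.51-fold lower (log2 fold change -2.26 ± 0.37, adjusted p = 0.00271), and CXCL5 was at least 18.1-fold lower. CXCL16 was 6.27-fold higher in p53-deleted H-Ras cells (log2 fold change 2.57 ± 0.24, limma adjusted p = 0.000193).

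Among the vector lines, 5 of 6 members tested were called lower in p53-deleted cells and 1 higher, against 15.2% and 15.1% of 12499 genes, and the median log2 fold change was -2.96 over the members and 0.00 over all genes. CXCL2 and CXCL3 reached the filter's 3 libraries only with the p53 wild-type libraries, where they were high, so the count and the median are no support. Over all genes, 998 to 1205 were called higher without any 1 of the p53-deleted libraries, against 1886 with all, and 1213 and 1209 lower without p53-deleted library A or p53 wild-type library B, against 1901. IL8 was 28.0-fold lower, with means of 22.3 in p53-deleted and 626 in p53 wild-type cells (log2 fold change -4.74 ± 0.23, SE, limma adjusted p = 2.84e-06). CXCL2 was 9.20-fold lower (log2 fold change -3.10 ± 0.26, adjusted p = 4.32e-05), CXCL3 8.64-fold lower (-2.82 ± 0.29, adjusted p = 0.000138) and CCL20 3.21-fold lower (-1.71 ± 0.28, adjusted p = 0.0018). CXCL3 had 13 reads in the p53-deleted group. Its p53-deleted to p53 wild-type ratio of 0.116 had a 95% exact counting interval of 0.0582 to 0.202. CXCL16 was 1.35-fold higher (0.43 ± 0.13, adjusted p = 0.0358), a call lost without any 1 of 5 libraries and with no filter (adjusted p 0.0525 to 0.138). With the authors' own size factors, set within each table, the median of all genes moved to 0.15 in the H-Ras lines and 0.16 in the vector lines. The calls over all genes then split as 3509 higher and 1500 lower in the H-Ras lines, against 2358 and 2279 with common factors, and as 2895 and 1343 in the vector lines, against 1886 and 1901. The members kept their directions under these factors. The H-Ras comparisons and those between backgrounds use the same libraries and are not independent of each other.

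Per kilobase of the longest coding transcript (GENCODE 29), the order of the members differed between groups. In p53-deleted H-Ras cells the normalized counts per kilobase were 347 ± 87.3 for CXCL1, 235 ± 149 for IL8, 213 ± 119 for CCL20, 47.4 ± 11.3 for CXCL16, 30.2 ± 3.78 for CXCL3 and 18.8 ± 3.58 for CXCL2 (SD, n = 3). The first 3 of these lay within each other's spread. In p53-deleted vector cells CXCL16 led with 108.8 ± 7.41, followed by CXCL1 with 60.4 ± 4.16 and CCL20 with 60.4 ± 21.7, which did not differ beyond their spread, then IL8 with 13.1 ± 2.83, CXCL2 with 7.39 ± 2.14 and CXCL3 with 3.77 ± 0.453.

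In p53 wild-type H-Ras cells CXCL1 led with 8385 ± 461 normalized counts per kilobase, followed by IL8 with 2929 ± 759, CXCL3 with 1344 ± 106, CCL20 with 962 ± 285 and CXCL2 with 345 ± 18.0. CXCL16 with 7.56 ± 1.48 and CXCL5 with 6.74 ± 2.32 came last and lay within each other's spread. In p53 wild-type vector cells the order was CXCL1 with 1082 ± 149, IL8 with 367 ± 97.9, CCL20 with 194 ± 42.8, CXCL16 with 80.8 ± 6.57, CXCL2 with 68.0 ± 5.41 and CXCL3 with 32.6 ± 6.0. CXCL3 was thus the lowest of these 6 in both vector lines and the third in p53 wild-type H-Ras cells.

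The summed level per kilobase of all 10 members was 669 to 1297 in p53-deleted H-Ras libraries and 217 to 292 in p53-deleted vector libraries. It was 13342 to 14919 in p53 wild-type H-Ras libraries and 1788 to 1855 in p53 wild-type vector libraries. CXCL1 made up 34.5% to 43.4% of it in p53-deleted H-Ras libraries and 21.7% to 25.6% in p53-deleted vector libraries, and 55.6% to 66.6% in p53 wild-type H-Ras libraries and 49.6% to 64.3% in p53 wild-type vector libraries. CXCL16 made up 3.15% to 9.03% in p53-deleted H-Ras libraries and 40.1% to 47.6% in p53-deleted vector libraries, and 0.0466% to 0.0613% in p53 wild-type H-Ras libraries and 4.14% to 4.74% in p53 wild-type vector libraries. The mix thus ran from mostly CXCL16, CCL20 and CXCL1 in p53-deleted vector cells to mostly CXCL1 and IL8 in p53 wild-type cells.

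**Figure D4:**
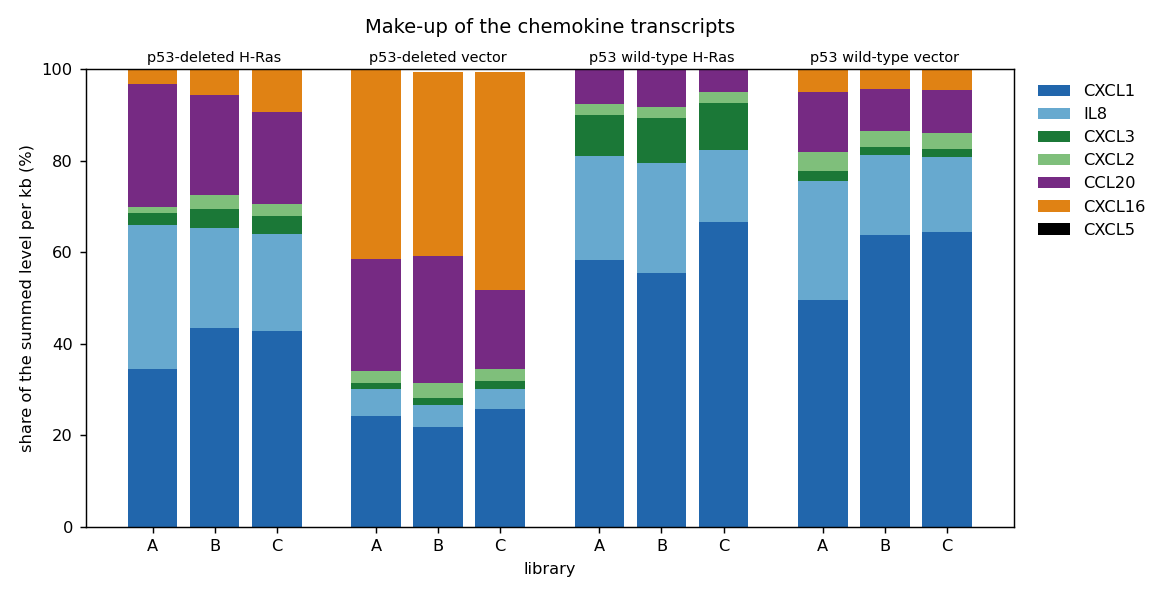
Share (%) of each chemokine gene in the summed normalized counts per kilobase of the 10 genes, as stacked bars for each library of the 4 groups (CCL2 and CCL5 fill what is left below 100%). CXCL16 takes 40.1% to 47.6% in p53-deleted vector libraries and under 0.1% in p53 wild-type H-Ras libraries.

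The ELR members lie in 1 cluster on chromosome 4, in the order CXCL8, CXCL6, PF4V1, CXCL1, PF4, PPBP, CXCL5, CXCL3 and CXCL2. RASSF6 lies before this cluster, and MTHFD2L and the growth factor genes EPGN, EREG and AREG lie beyond it. The neighbours were chosen by position after the values were seen. The platelet chemokine PF4 had 0 reads in both p53-deleted groups, and 17 reads with H-Ras and 1 with vector in p53 wild-type cells. PPBP, also a platelet chemokine gene, had 0 reads in both p53-deleted groups, and 18 with H-Ras and 1 with vector in p53 wild-type cells. With CXCL5, these made 3 genes between CXCL1 and CXCL3 whose few reads were nearly all in p53 wild-type H-Ras libraries, while CXCL6 had none there. The H-Ras to vector ratio was 15.7 for PF4, with a 95% exact counting interval of 2.55 to 681, and 15.8 for PPBP, with an interval of 2.72 to 719. Normalized over the 12 libraries, EREG (epiregulin) averaged 2256 ± 131 in p53-deleted H-Ras and 721 ± 177 in p53-deleted vector cells, and 2211 ± 281 in p53 wild-type H-Ras and 495 ± 45.8 in p53 wild-type vector cells (SD, n = 3 each). EPGN (epigen) averaged 28.2 ± 1.07 in p53-deleted H-Ras and 65.0 ± 30.2 in p53-deleted vector cells, and 284 ± 43.3 in p53 wild-type H-Ras and 86.1 ± 28.0 in p53 wild-type vector cells. AREG (amphiregulin) averaged 153 ± 11.1 in p53-deleted H-Ras and 97.2 ± 35.8 in p53-deleted vector cells, and 597 ± 115 in p53 wild-type H-Ras and 189 ± 41.5 in p53 wild-type vector cells. The 2 H-Ras lines overlapped in EREG, while in EPGN and AREG all p53-deleted H-Ras libraries lay below the p53 wild-type ones, as they did in CXCL1.

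Of 34 other chemokine genes, 21 had no read, 12 stayed below a mean of 10 normalized counts in every group and 1, CCL28, was above. CCL28, an attractant of mucosal lymphocytes, averaged 32.3 in p53-deleted H-Ras and 50.3 in p53-deleted vector cells, with a log2 fold change of -0.61 ± 0.21 (SE, limma adjusted p = 0.0295). It averaged 104 in p53 wild-type H-Ras and 53.2 in p53 wild-type vector cells, with a log2 fold change of 0.99 ± 0.28 (adjusted p = 0.0362). Its responses differed by -1.60 ± 0.35 (adjusted p = 0.00932). It was named as the single gene above that level.

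Of 23 chemokine receptor genes, 6 had no read, 16 stayed below a mean of 10 and 1, DARC, was above. Among receptors of the members, CXCR1 and CXCR2 had 0 reads in both H-Ras lines. In the vector groups CXCR1 had 1 read in p53-deleted and 10 in p53 wild-type cells, and CXCR2 had 4 and 9. CXCR6 averaged at most 3.99 normalized counts in any group. DARC, also called ACKR1, is an atypical receptor that binds many chemokines without G protein signalling. It had 37.2, 39.6 and 36.1 normalized counts in p53-deleted H-Ras libraries and 0 in p53-deleted vector libraries, at least 37.7-fold higher. Among p53 wild-type libraries it had 1 read in the H-Ras group and 0 in the vector group. The nearby gene CADM3, chosen after its values were seen, averaged 287 ± 27.9 in p53-deleted H-Ras cells and 7.02 ± 5.40 in p53 wild-type H-Ras cells, with 0 reads in both vector groups. Whether counting used strand is not given in the sources used here, so reads running on from a neighbouring gene cannot be told apart from DARC's own.

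NF-kappaB subunits, their regulators and feedback genes were all tested (16 of 16). In p53-deleted cells 7 rose and 3 fell with H-Ras, against 27.8% and 28.4% of all genes, and in p53 wild-type cells 2 rose and 2 fell, which is near the 13.0% and 12.7% of all genes. The median log2 fold changes were 0.29 in p53-deleted and 0.08 in p53 wild-type cells. NFKBIZ, a nuclear IkappaB protein that works with NF-kappaB at inflammatory genes, rose by 0.85 ± 0.13 in p53-deleted cells (SE, limma adjusted p = 0.000163) and by 1.13 ± 0.20 in p53 wild-type cells (adjusted p = 0.00566). Between the H-Ras lines 7 were lower in p53-deleted cells and 1 higher, against 18.0% and 18.6% of all genes, with a median of -0.43. Between the vector lines 10 were lower, against 15.2% of all genes, with a median of -0.75. The feedback gene TNFAIP3 (A20) was lower in p53-deleted cells, with a log2 fold change of -3.40 ± 0.14 in the H-Ras lines (limma adjusted p = 9.46e-06) and -2.88 ± 0.24 in the vector lines (adjusted p = 5e-05). TNIP1, its partner, was at -1.18 ± 0.10 (adjusted p = 0.000134) in the H-Ras lines and -1.13 ± 0.11 (adjusted p = 0.000135) in the vector lines. TNFAIP3 was named after its values were seen, and TNIP1 as 1 of the 5 genes most like CXCL1.

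Of 15 inducers and partner factors, 6 rose and 4 fell among 13 tested in p53-deleted cells, against 27.8% and 28.4% of all genes, with a median of -0.02. The share that fell is near that of all genes. In p53 wild-type cells 5 rose and 3 fell among 14 tested, against 13.0% and 12.7% of all genes, with a median of 0.41. IL1RN in both backgrounds, and ATF3 in p53-deleted cells, passed the filter only through vector libraries, where they were high. The counts that fell and the medians are therefore no support. IL1A, an IL1 receptor ligand, averaged 194 ± 49.2 in p53-deleted H-Ras and 976 ± 179 in p53-deleted vector cells, and fell by 2.34 ± 0.17 on the log2 scale (limma adjusted p = 6.21e-07). In p53 wild-type cells it averaged 2094 ± 495 with H-Ras and 1601 ± 188 with vector (adjusted p = 0.199). IL1B was at 1344 ± 281 in p53-deleted H-Ras and 1349.6 ± 111 in p53-deleted vector cells (SD, n = 3 each). It was at 3225 ± 1299 in p53 wild-type H-Ras and 1018 ± 242 in p53 wild-type vector cells, with a rise of 1.59 ± 0.34 (limma adjusted p = 0.0126) that was lost without any 1 of 4 libraries (adjusted p up to 0.0615).

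IL1R1, the signalling receptor of IL1, rose by 2.28 ± 0.19 in p53-deleted cells (SE, limma adjusted p = 2.15e-06) and by 2.95 ± 0.21 in p53 wild-type cells (adjusted p = 0.0001). IL1RN, the receptor antagonist, had 0 in p53-deleted H-Ras and 41.3 ± 6.23 in p53-deleted vector cells, and 1.61 ± 1.98 in p53 wild-type H-Ras and 50.2 ± 19.8 in p53 wild-type vector cells. It was called lower in both backgrounds. In each it passed the filter only through the vector libraries, where it was high, so these calls are no support. IL6, a cytokine often secreted along with IL8, averaged 17.1 ± 10.4 in p53-deleted H-Ras cells and had 1 read in the p53-deleted vector group. It averaged 63.7 ± 14.6 in p53 wild-type H-Ras and 12.9 ± 2.17 in p53 wild-type vector cells. LIF, a cytokine of the IL6 family, rose by 1.60 ± 0.13 in p53-deleted cells (limma adjusted p = 1.88e-06) and by 1.04 ± 0.17 in p53 wild-type cells (adjusted p = 0.00406).

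The partner factors of the bZIP class moved unlike each other. CEBPB rose by 1.10 ± 0.09 in p53-deleted cells (SE, limma adjusted p = 1.26e-06) and had 0.45 ± 0.16 in p53 wild-type cells (adjusted p = 0.0753). JUN, an AP-1 subunit, fell to 217 ± 38.4 in p53-deleted H-Ras cells, against 397 ± 180 in p53-deleted vector cells (limma adjusted p = 0.0167, but 0.051 without library A of the H-Ras line), and had 817 ± 42.1 in p53 wild-type H-Ras and 402 ± 48.9 in p53 wild-type vector cells (adjusted p = 0.000852). FOS rose by 1.64 ± 0.13 in p53-deleted cells (adjusted p = 1.63e-06). In p53 wild-type cells FOS averaged 202 ± 67.5 with H-Ras and 218 ± 93.0 with vector (SD, n = 3 each). CEBPD was higher with H-Ras in p53-deleted and lower in p53 wild-type cells, with values given further below. Both CEBPD calls were lost in some fits. ATF3 fell by 2.12 ± 0.34 in p53-deleted cells (adjusted p = 0.000301) and by 1.43 ± 0.26 in p53 wild-type cells (adjusted p = 0.00654). In p53-deleted cells ATF3 passed the filter only through the vector libraries, where it was high, so that call is no support. Of 11 genes for mRNA decay and protein processing, 4 rose and 3 fell among 9 tested in p53-deleted cells, against 27.8% and 28.4% of all genes, and 3 rose among 10 tested in p53 wild-type cells, against 13.0% of all genes. Their medians were -0.14 in p53-deleted and -0.01 in p53 wild-type cells.

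Across the 12 libraries, the 5 genes outside the members whose log2 levels followed CXCL1 most closely were KIAA1549L (Pearson r = 0.989), FAM162A (0.985), AP1S2 (0.979), TMCC3 (0.978) and TNIP1 (0.977), among 8905 genes with a mean of at least 100. Within the members the same measure was 0.985 for CXCL2, 0.974 for IL8, 0.959 for CXCL3, 0.936 for CCL20 and -0.856 for CXCL16. These values describe 12 libraries in 4 groups that share lines and tables. No such genes were named for CCL5, which was too low.

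Markers of cell types that make these chemokines in tissue were checked. PTPRC, the general leukocyte antigen CD45, and the T cell marker CD3E had 0 reads in all 12 libraries. The 8 leukocyte markers summed to 761 to 916 normalized counts in p53-deleted H-Ras libraries and 142 to 161 in p53-deleted vector libraries, and to 532 to 1386 in p53 wild-type H-Ras libraries and 324 to 949.9 in p53 wild-type vector libraries. Among the 3 of them tested, 2 rose and 1 fell in p53-deleted cells, against 27.8% and 28.4% of all genes, and 1 rose and 1 fell in p53 wild-type cells, against 13.0% and 12.7%. LAPTM5 rose in both, with means of 534 in p53-deleted H-Ras and 25.1 in p53-deleted vector cells, and of 687 in p53 wild-type H-Ras and 62.7 in p53 wild-type vector cells. CD14 rose in p53-deleted cells, with means of 282 with H-Ras and 76.9 with vector, and had 381 with H-Ras and 428 with vector in p53 wild-type cells. CSF1R fell in both. The 5 fibroblast markers summed to 345 to 693 in p53-deleted H-Ras libraries and 95.7 to 138 in p53-deleted vector libraries, and to 2311 to 3602 in p53 wild-type H-Ras libraries and 204 to 309 in p53 wild-type vector libraries, with COL1A2 at 0 in all. Of the fibroblast markers 1 rose and 1 fell among 2 tested in p53-deleted cells, against 27.8% and 28.4% of all genes. In p53 wild-type cells 2 rose and 1 fell among 3 tested, against 13.0% and 12.7%. Between the vector lines only 2 fibroblast markers passed the filter. A marker counted in p53 wild-type cells thus passed there only with the H-Ras libraries, so that count is no support. DCN (decorin) made up most of the sum in both H-Ras lines and rose in both, with means of 506 in p53-deleted H-Ras and 11.2 in p53-deleted vector cells, and of 2990 in p53 wild-type H-Ras and 157 in p53 wild-type vector cells. COL1A1 fell in both backgrounds. The 5 endothelial markers summed to 552 to 612 in p53-deleted H-Ras libraries and 79.2 to 110.1 in p53-deleted vector libraries, and to 655 to 831 in p53 wild-type H-Ras libraries and 163 to 199.8 in p53 wild-type vector libraries, with PECAM1 at 0 in all. KDR and ROBO4, the 2 tested, were called higher in each background, against 27.8% of all genes in p53-deleted and 13.0% in p53 wild-type cells. KDR averaged 204 in p53-deleted H-Ras and 33.0 in p53-deleted vector cells, and 107 in p53 wild-type H-Ras and 20.5 in p53 wild-type vector cells. ROBO4 averaged 380 in p53-deleted H-Ras and 61.4 in p53-deleted vector cells, and 635 in p53 wild-type H-Ras and 143 in p53 wild-type vector cells. Markers named with their own values were picked after those values were seen. The part of these genes, and of the fall in epithelial markers, in the chemokine differences was not tested.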

How the data were processed

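TRIzol RNA of 12 MCF10A samples went through oligo-dT selection and a TruSeq kit, per the labels' protocols. The submitters' processing notes name FastQC, Trimmomatic, TopHat, SAMtools, HTSeq and the GRCh37 build. Versions, annotation and strand setting are not given in the sources used here. In all, the authors deposited 1 table per p53 background, which holds for each gene the mean signal of the vector and of the H-Ras group, per the file headers. From the values, this deposited signal is a mean over libraries of reads over a size factor specific to the table. The deposited ratio of the group means (fold change) and p-value with its adjusted value are the authors' own. The tables hold group means, so values of single libraries were solved: a search found the whole-number reads of 3 libraries whose scaled mean equals the printed one, with a unique solution for 99.84% to 99.99% of genes per group and for all 10 chemokines. All SDs come from these solved values, not from deposited columns. Recomputed size factors matched within 0.0427%. The letters A, B and C follow the size factor (A highest) and have no link to replicate numbers. For HRAS, the p53 wild-type H-Ras reads were settled by narrow search bounds, so its SD is uncertain. Counts of the deleted gene are not reported here.

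limma 3.58.1 (R 4.3.3) with a mean-variance trend was run on log2(normalized count + 1), a scale that understates changes of low genes, for genes that reached 10 normalized counts in 3 or more of the fitted libraries. Each H-Ras comparison used the 6 libraries of its table, and the interaction all 12. Comparisons between backgrounds, and their levels, used median-of-ratios factors over the 12 libraries, since the tables had been scaled separately. The design named a count test for raw counts per library, which could not be the main test of group means. The procedures were tested on simulated data. Genes named outside the members were those called in an H-Ras comparison with an absolute log2 change of at least 1 in the lists on NF-kappaB, inducers, receptors and other chemokines, and the 5 genes most like CXCL1, plus those stated as named after their values were seen. Members, lists and tests were chosen with earlier results of these data known. Promoters came from RefSeq (GRCh38.p14) and transcript lengths from GENCODE 29. Alternatives were other scalings, filters, pseudocounts and models, and leaving out libraries. Python 3.11.15, NumPy 2.4.6, pandas 2.3.3, SciPy 1.17.1, Biopython 1.88 and Matplotlib 3.10.9 were used.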

Additional observations from a re-analysis of the deposited data

Results flagged for a closer look

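These H-Ras responses differed between the p53 backgrounds by the limma interaction test, given as p53-deleted minus p53 wild-type on the log2 scale. CXCL3 (-2.60), CXCL2 (-1.05) and CXCL5 (-4.05) rose less, or were not detected, in p53-deleted cells, and CXCL16 fell less (2.13). DARC had 4.95, from reads that were nearly all in p53-deleted H-Ras libraries. IL1A had -2.71, IL1B -1.61 and JUN -1.82. FOS had 1.73, CEBPB 0.65 and CEBPD 2.62, with CEBPD at 123 ± 34.4 normalized counts in p53-deleted H-Ras and 65.8 ± 12.7 in p53-deleted vector cells, and at 69.0 ± 38.8 in p53 wild-type H-Ras and 213 ± 67.6 in p53 wild-type vector cells (SD, n = 3 each). The CEBPB difference was lost without any 1 of 5 libraries (adjusted p up to 0.077). The causes of these differences were not tested.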

How the results depend on the processing

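In the 2 H-Ras comparisons and between the H-Ras lines, each member call kept its direction and its side of the threshold in every alternative in which the gene could be tested, except CCL20 in p53-deleted cells, which had an adjusted p of 0.0697 in the authors' deposited table. CXCL5, and CXCL3 in the p53-deleted H-Ras and the vector-line comparisons, had too few libraries above the filter once 1 of theirs was left out, so they could not be tested there. The fitted log2 fold change of CXCL5 ran from 2.047 to 5.003 with the pseudocount in p53 wild-type cells. Calls lost for CXCL2 and CXCL16 and gained for CXCL1 stand beside those results.

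Leaving out 1 library at a time, members called higher and lower numbered 4 to 5 and 1 in p53-deleted cells, 5 to 6 and 1 in p53 wild-type cells, 1 and 1 to 3 for the difference of responses, 1 and 5 to 6 between the H-Ras lines, and 0 to 1 and 4 to 5 between the vector lines. All genes called higher and lower numbered 2690 to 3489 and 2973 to 3381 in p53-deleted cells, 739 to 1928 and 768 to 2202 in p53 wild-type cells, 750 to 1185 and 711 to 1092 for the difference of responses, 1356 to 2991 and 1480 to 3062 between the H-Ras lines, and 998 to 2297 and 1209 to 2099 between the vector lines. With a mean of at least 50 required, 3 members were called higher in p53-deleted cells and 3 lower between the vector lines, since CXCL2 and CXCL3 were then left out. With no filter, 0 members were called higher between the vector lines, where CXCL16 had an adjusted p of 0.0525. Over all genes in p53 wild-type cells, 2428 were called lower in the fit on all 12 libraries, and 3341 higher and 3459 lower without the 2 libraries that stood apart, an alternative chosen after seeing the data, against 1614 and 1583. With the authors' own size factors, 1500 genes were called lower between the H-Ras lines and 2895 higher between the vector lines. The causes of these shifts in calls over all genes were not tested. The call of CEBPD in p53-deleted cells was lost in the fit on all 12 libraries, and that of JUN there without the trend. The fall of CEBPD in p53 wild-type cells was no longer called without any 1 of vector libraries A, B and C and H-Ras library B (adjusted p 0.0649 to 0.0788).

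No paired analysis was possible because the values of single libraries carry no replicate number. The planned count test was not run, and limma's voom on the solved reads was added in its place. Depth limits what can be said of CCL2, CCL5 and CXCL6.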
